A study of Mus musculus with 34 samples.

Results

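The passage from round to elongating spermatid in mice without Gcn5 was described from 4 deposited lists of intervals, a list of nucleosome calls and a list of subnucleosome peaks at each of the 2 stages. They were chosen by their group alone. The nucleosome lists held 540655 calls in elongating spermatids (ES) and 207681 in round spermatids (RS), and the subnucleosome lists held 473 peaks at ES and 4075 at RS. These 752884 intervals are part of 3711338 in the 24 lists of the series, which measured open DNA by paired-end ATAC-seq at 4 stages of mouse spermatogenesis in 3 genetic backgrounds. In ATAC-seq the transposase Tn5 cuts and tags accessible DNA. Long fragments that span a nucleosome give the nucleosome calls, each 150 bp wide in all the lists used here, and short fragments from DNA free of nucleosomes give the subnucleosome peaks, called open sites below.

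The mice without Gcn5 (cKO) were C57BL6 GCN5-/-, with homozygous floxed alleles removed by Stra8-Cre, a recombinase driven from a gene that switches on as germ cells enter meiosis. The same passage was read in C57BL6 GCN5+/+ mice (WT) and in SV129 mice, which carry intact Gcn5. The labels give 2 libraries for each C57BL6 group and 4 for each SV129 group, but there is 1 list of each class per group, so no value below has a replicate error and no difference was tested. Whether the GCN5+/+ mice carried the Cre or floxed alleles, their age, and how many animals were pooled is not stated in the sources used here. The protocol describes SV129 animals, with 200000 spermatids per reaction from sedimentation fractions of at least 85% purity.

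Gcn5, encoded by Kat2a, is the acetyltransferase of the SAGA and ATAC coactivator complexes and acetylates the tail of histone H3. In round spermatids many genes of sperm formation are transcribed. In elongating spermatids histones are heavily acetylated and then replaced, first by transition proteins and then by protamines, as the nucleus condenses and transcription stops. Loss of open sites and a change in where nucleosomes can be mapped therefore belong to the transition in normal animals too, which is why the WT lists stand beside the cKO lists throughout.

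Kat2a (chromosome 11, 100704746 to 100712485, GRCm38) did not check the deletion. Nucleosome calls covered 150 bp at its ends in cKO at ES and 0 at RS, against 0 in WT at ES and 206 bp at RS, and an open site was listed there only in WT at RS, with 83 bp. Markers of spermatids gave a partial check of the stage. Of 11 such genes, among them Prm1, Tnp1, Pgk2 and Ldhc, 2 had an open site at an end in cKO at RS, Pgk2 and Ldhc, while 9 did in WT and 10 in SV129. At ES none of the 11 had one in any of the 3 backgrounds. Open sites at markers of Sertoli and Leydig cells, of peritubular, endothelial and blood cells, and of epididymal and epithelial cells were absent from the cKO lists at both stages, 0 of 22, 0 of 20 and 0 of 13 genes. Only 0.0959% of all genes had an open site in cKO at ES, so absence there checked neither stage nor purity.

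The score deposited with the nucleosome calls differed between the lists in a way that bears on the counts below. In the cKO RS list it reached no higher than 0.00199, whereas it reached 0.00498 in cKO at ES, 0.00491 in WT at ES and 0.00497 in WT at RS. What the score measures is not stated. Counts of genes and shares of calls are therefore given for all calls and, for the main results and the gene lists, also for calls with scores up to 0.00199 in all lists, called the shared score range. In that range cKO had 203009 calls at ES and 207043 at RS, a ratio of 0.981, and WT had 226792 and 72484, a ratio of 3.13. With all calls the ES list was 2.6 times as long as the RS list in cKO, 2.33 times in WT and 2.08 times in SV129. A longer ES list in cKO thus held for the deposited lists and not in the shared score range, a limit chosen after the data were seen.

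A smaller share of nucleosome calls lay at gene ends in elongating than in round spermatids without Gcn5. Gene ends, the 500 bp on either side of the annotated start and end of 21887 protein-coding genes, make up 1.52% of the sequence. They held 3.36% of call centres in cKO at ES (Wilson 95% interval 3.31% to 3.41%) and 7.46% at RS (7.35% to 7.57%). The corresponding shares were 2.72% (2.67% to 2.76%) and 17.9% (17.8% to 18.1%) in WT, and 3.5% and 19.1% in SV129. The ES share was thus 0.451 times the RS share in cKO, 0.152 times in WT and 0.184 times in SV129. At ES the 3 backgrounds lay within 1 percentage point of each other, and the cKO RS list stood below both intact RS lists. In the shared score range the shares were 4.3% at ES and 7.46% at RS in cKO, 2.88% and 34% in WT, and 3.78% and 39.7% in SV129, so a lower share at ES was found in all 3 backgrounds either way. The intervals cover counting error only, and calls overlap each other and are not independent.

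**Figure D1:**
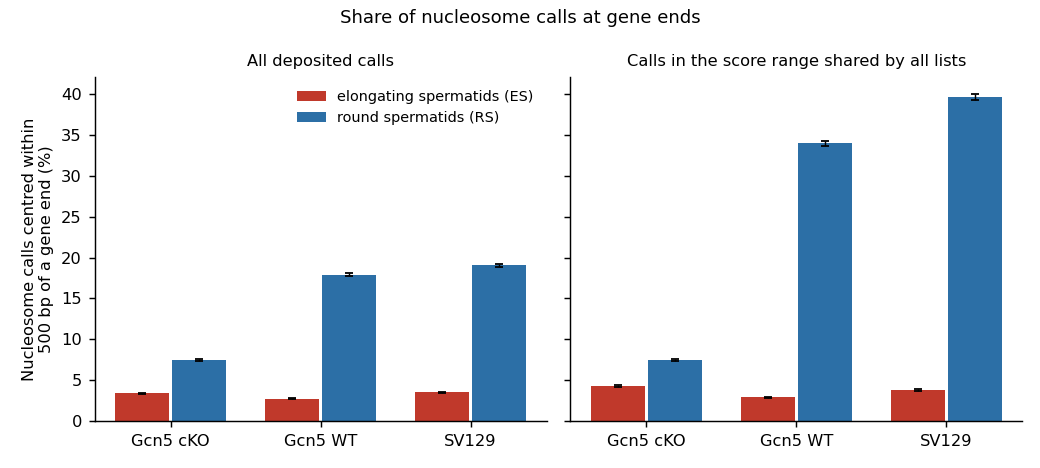
Share of nucleosome calls (%) whose centre lies within 500 bp of a protein-coding gene end, for elongating and round spermatids of each background, with all deposited calls on the left and calls with scores up to 0.00199 on the right; bars are single lists and error bars are Wilson 95% intervals. The ES bars lie between 2.72% and 4.3% in both panels, while the RS bar is 7.46% in cKO and at least 17.9% in WT and SV129.

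In number rather than share, calls at gene ends went in opposite directions in the 2 C57BL6 backgrounds. In cKO they numbered 18122 at ES and 15440 at RS, a ratio of 1.17, and in WT 16014 and 45348, a ratio of 0.353. The difference, ES minus RS, was 2682 calls in cKO and -29334 in WT. This contrast did not hold in the shared score range, where cKO had 8728 calls at gene ends at ES and 15440 at RS, and WT 6536 and 24646. At 5′ ends alone, which can be told apart for 17492 genes whose strand is known, cKO had 10315 calls at ES and 11004 at RS, a ratio of 0.937, against 8663 and 36557 in WT, a ratio of 0.237. The 5′ ends therefore held slightly fewer calls at ES in cKO with all calls too. With shared scores they held 5168 at ES and 11004 at RS in cKO, and 3665 and 20249 in WT.

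The calls added to the cKO list at ES lay almost wholly away from gene ends. Of the net increase 47.1% was in gene bodies, 52% outside genes and 0.807% at gene ends. There was no net increase to divide when scores were limited to the shared range. Gene bodies, which make up 37.1% of the sequence, held 45.6% of calls in cKO at ES and 43.2% at RS, and 43.3% and 32.4% in WT. Sequence outside genes, 61.4% of the total, held 51% of calls at ES and 49.4% at RS in cKO, and 54% and 49.7% in WT. The small difference outside genes in cKO turned in the shared score range, where the shares were 48% at ES and 49.4% at RS. Far from genes the backgrounds differed at RS. The median distance of calls outside genes to the nearest gene was 58.1 kb at ES and 65.5 kb at RS in cKO, against 65.2 kb and 154 kb in WT and 45.1 kb and 71.4 kb in SV129.

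With all calls, each of the 19 autosomes had more at ES than at RS. The ratio of ES to RS calls per autosome ran between 2.38 on chromosome 18 and 2.85 on chromosome 7 in cKO, around a median of 2.61, and between 1.74 on chromosome 3 and 3.25 on chromosome 7 in WT. The X chromosome, which is silenced in meiosis and stays largely repressed in round spermatids, stood above the autosomes in both. It held 4372 calls at ES and 1093 at RS in cKO, a ratio of 4, against 6857 and 517 in WT, a ratio of 13.3. The Y chromosome held 490 calls at ES and 123 at RS in cKO, and 810 and 114 in WT. Few genes there had calls. Of 966 X-linked genes 56 had a call at an end in cKO at ES and 45 at RS, against 72 and 69 in WT.

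The position of calls within 5′ ends, read from all calls, also differed between the stages. In cKO, as in the other lists, the densest 50 bp bin was centred 125 bp inside the gene, the place of the first nucleosome downstream of the start. It held 54.9 call centres per 1000 ends at ES and 95.3 at RS in cKO, which is 3.43 and 10.1 times the density in the flanks. In WT it held 45.5 at ES and 242 at RS, 2.83 and 13.7 times the flanks. Just upstream of the start, in the last 150 bp before the gene, the density in cKO was 30.1 at ES and 27.9 at RS, while WT had 23.3 and 192. The cKO RS list therefore showed a dip at the start, with 24.4 centres in the bin next to it, between maxima of 40.1 centred 175 bp before and 95.3 centred 125 bp after it. In the cKO ES list the bin next to the start held 30.8 and the one centred 175 bp before it 29.4, so no dip was seen. No comparable maximum stood at 3′ ends, where the densest bin was 1.3 times the flanks at ES and 1.47 times at RS in cKO.

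**Figure D2:**
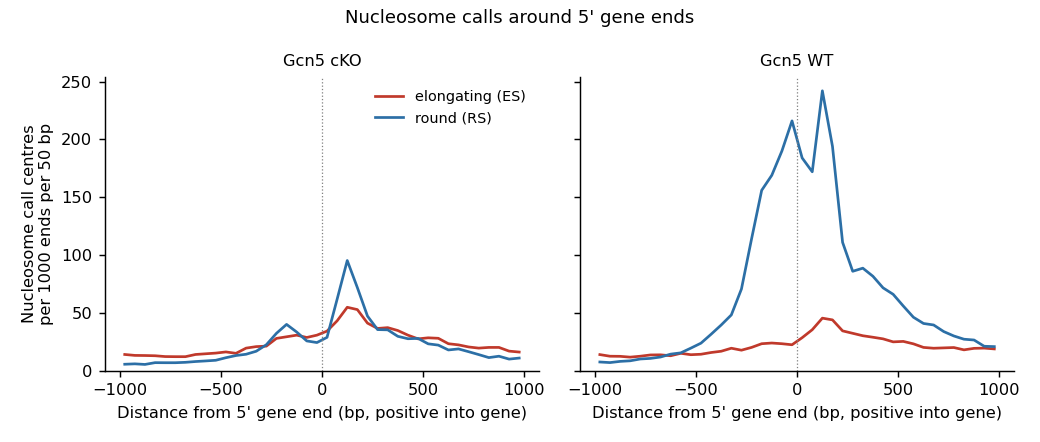
Nucleosome call centres per 1000 gene 5′ ends in 50 bp bins (vertical axis) against distance from the end in bp (horizontal axis, positive into the gene), for cKO on the left and WT on the right; lines are single lists. The RS line reaches 95.3 in cKO and 242 in WT at 125 bp inside the gene, and the ES lines reach 54.9 and 45.5 there.

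Few individual calls persisted. Of the cKO calls at ES 3.76% overlapped an RS call (3.71% to 3.81%), with 0.612% of the sequence under RS calls. Of the RS calls 10.1% overlapped an ES call (9.99% to 10.3%), with 1.66% of the sequence under ES calls. WT gave 4.18% and 10.7%. Carry-over was higher at gene ends, where 18.3% of cKO ES calls overlapped an RS call and 22.3% of cKO RS calls overlapped an ES call, against 32.1% and 17.4% in WT. The other list also covered more of the sequence there, with 3.09% of gene ends under cKO RS calls and 3.73% under cKO ES calls, and 7.79% and 3.37% in WT. With shared scores, 5.29% of ES calls overlapped an RS call and 6.02% of RS calls an ES call in cKO, against 2.14% and 8.01% in WT. At gene ends these shares were 22.1% and 15.3% in cKO, against 23.5% and 9.76% in WT. How far calls of one group repeat between libraries cannot be read from single lists, so low carry-over does not show that nucleosomes moved.

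Few open sites were listed in elongating spermatids, in cKO as in WT. The cKO list of subnucleosome peaks was 8.62 times shorter at ES than at RS, with 473 and 4075 peaks, the WT list 100 times, with 562 and 56480, and the SV129 list 37.2 times, with 787 and 29243. The ES lists were thus of similar length, and the fold difference follows the RS lists. Peak names point to 1 library per C57BL6 list, and their numbers run to 1401 at ES and 5379 at RS in cKO, against 959 and 87628 in WT. The share of fragments or the read depth behind these lists is unknown, so a shorter cKO RS list and a shallower cKO RS library cannot be told apart.

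Of the 4059 cKO RS open sites on the numbered chromosomes, X and Y, 225 overlapped an ES open site (5.54%, 4.88% to 6.29%). A further 656 (16.2%) had no ES open site but overlapped an ES nucleosome call, and 3178 (78.3%) overlapped neither. In WT 308 of 56417 were kept (0.546%, 0.488% to 0.61%), 10.4% had an ES nucleosome call instead and 89.1% had neither. The kept share depended on which RS sites were listed. Among the 4049 cKO RS sites that were also open in WT at RS, 5.46% were open at ES in cKO and 4.94% in WT (4.8% to 6.2% and 4.31% to 5.65%). Both shares are of the same sites, and their difference was not tested. When WT was limited to as many RS sites as cKO had, taking the highest scores, 1.75% were kept.

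A smaller share of open sites was kept at gene ends than elsewhere. Of 2091 cKO RS open sites at gene ends 15 were open at ES (0.717%, 0.435% to 1.18%), against 67 of 856 in gene bodies (7.83%) and 143 of 1112 outside genes (12.9%). In WT 7 of 10242 at gene ends were kept (0.0683%, 0.0331% to 0.141%), with 0.505% in bodies and 0.757% outside genes. On the 2091 gene-end sites of cKO, all of which were also open in WT at RS, 15 were open at ES in cKO and 4 in WT, 0.717% and 0.191% (0.435% to 1.18% and 0.0744% to 0.491%). The same sites were read in both, so overlap of these separate intervals does not measure the difference, which was not tested. Sites kept in cKO had a median score of 14 and a median width of 130 bp, and those that closed 7.32 and 121 bp.

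**Figure D3:**
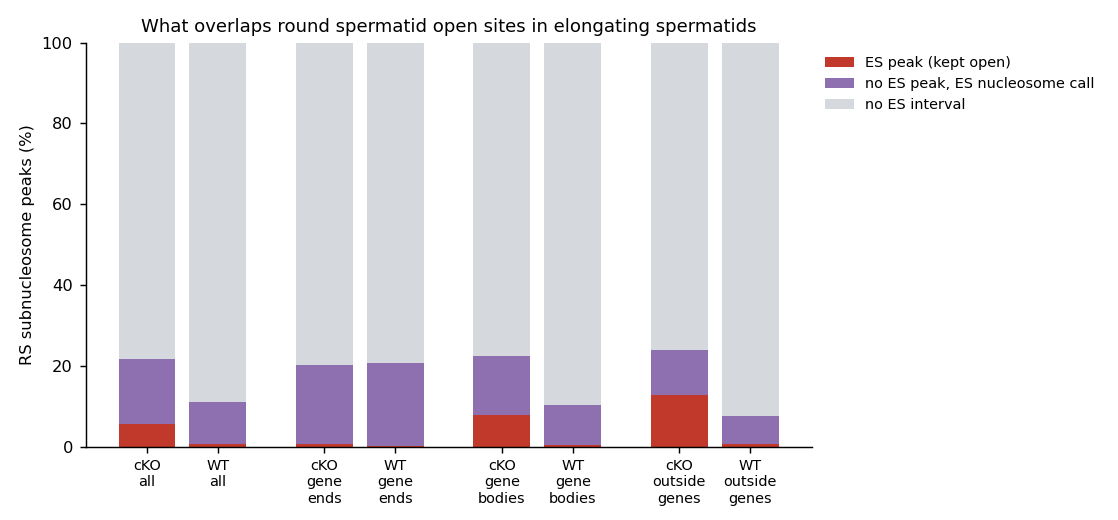
Share of RS subnucleosome peaks (%) that overlapped an ES peak, overlapped an ES nucleosome call but no ES peak, or overlapped neither, by position of the RS peak, for cKO and WT; each bar is 1 list. The kept share in cKO is 0.717% at gene ends, 7.83% in gene bodies and 12.9% outside genes, and at most 0.757% in WT.

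Few of these sites had a listed nucleosome at ES. ES nucleosome calls overlapped 19.3% of the cKO RS open sites (18.2% to 20.6%), and RS calls overlapped 24.4% (23.1% to 25.8%), so fewer of these sites had a call at ES than at RS. At gene ends the shares were 19.8% at ES and 27.5% at RS in cKO, against 20.8% and 74.2% in WT. On the 2091 shared sites at gene ends ES calls overlapped 19.8% in cKO and 15.1% in WT, and RS calls 27.5% and 92.3%. With all calls the backgrounds thus lay much closer to each other at ES than at RS. The overlaps above and the profiles below were all read from all calls. Scores reached 0.00199 in the cKO RS list and 0.00497 in the WT RS list. No value here was limited to shared scores, so the difference at RS cannot be told apart from the unlike score ranges. Around cKO RS open sites at gene ends, RS call centres formed 2 flanking maxima of 202 and 209 per 1000 sites, centred 175 bp to either side, with 45 per 1000 in the bin centred 25 bp before the middle. At ES the values were 80.8 and 93.3 at the flanks and 63.1 in that bin. The maxima on either side of gene-end sites were therefore lower at ES than at RS in cKO, and the centre stayed below the flanks. WT gene-end sites showed no such gap at RS among all calls, which include scores above the cKO RS range. They had 411 and 499 centres per 1000 sites in the 2 bins next to the middle, and 294 and 429 in those 175 bp to either side. At ES these bins held 49.5 and 49.7, and 54.7 and 44.9. The other 1968 cKO RS open sites differed from the cKO gene-end sites. Call centres there numbered 94.5 and 95 per 1000 sites at ES in the 2 bins next to the middle, and 58.9 and 66.6 in those 175 bp to either side. At RS the same bins held 57.4 and 71.1 next to the middle, and 96.5 and 105 to the sides, so away from gene ends the middle held more centres at ES than the sides did. In WT the middle of such sites already held more at RS, with 166 and 189 against 96.7 and 160 to the sides.

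The open sites left in elongating spermatids lay mostly outside genes. Of 423 placed cKO ES sites 278 were outside genes (65.7%), 126 in gene bodies (29.8%) and 19 at gene ends (4.49%), against 27.4%, 21.1% and 51.5% of the RS sites. WT ES sites had 68.8% outside genes and 1.61% at gene ends. Of the cKO ES sites 218 (51.5%, 46.8% to 56.3%) overlapped a cKO RS site, 79% a WT RS site, 82.7% a WT ES site and 62.9% a site of the cKO fraction labelled meiotic spermatid. The other 205 were not listed in cKO at RS, and 4 of these were at gene ends. Sites kept through the transition were mostly listed both before and after it. Of the 225 kept RS sites 90.2% were also open in that meiotic fraction and 80% in cKO sperm, against 75.8% and 11.5% of the 3834 that closed. Among closed sites, 92.8% of those at gene ends and 48.3% of those outside genes were open in the meiotic fraction, and 18% and 1.34% in sperm.

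Many of these ES sites came from few places. In 11 clusters, each with at least 8 ES peaks in 1 background and gaps under 50 kb, lay 120 of 473 cKO ES peaks (25.4%) and 158 of 562 in WT (28.1%), but 57 of 4075 cKO RS peaks (1.4%). The cluster on a chromosome with most ES peaks in cKO spanned 38.2 kb at the start of chromosome 9 (3000010 to 3038227, GRCm38), with 28 peaks at ES and 16 at RS in cKO and 33 and 24 in WT, and no annotated gene. Another on chromosome 17 (39843051 to 39848776) covered Rn18s-rs5, a gene for ribosomal RNA, with 8 cKO peaks at ES and 9 at RS. A pair on chromosome 5 covered members of the multicopy Speer family, with 7 and 9 cKO peaks at ES and 4 and 4 at RS. Of all cKO ES peaks 10.6% lay on scaffolds not placed on a chromosome, against 0.393% at RS, and 27 of them formed a cluster on 1 such scaffold. Reads in near-identical copies cannot be assigned to one copy with certainty. With these clusters left out 4.61% of cKO RS sites and 0.43% of WT RS sites were kept.

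At the level of genes, an open site at an end was listed for 21 genes in cKO at ES and 2446 at RS, against 10 and 10177 in WT. Of the 2446 genes open in cKO at RS 99.3% had none at ES, and of the 10177 in WT 99.9%. In cKO 16 genes kept an open site and 5 had one at ES only, 0.0257% of the genes without one at RS, while WT had 9 kept and 1 new, 0.00854% of its genes without one at RS. The 5 new ones in cKO were Speer4c, Mbip, Gm51591, Asmt and Sfi1. Mbip, a subunit of the ATAC complex in which Gcn5 also sits, had 85 bp under a peak at ES and 0 at RS in cKO, and 0 and 230 bp in WT. Asmt, which makes melatonin, had 71 bp at ES in cKO and 0 in the other lists described here. Gm51591 had 82 bp at ES in cKO and none in the others, while Speer4c had 96 bp and Sfi1 8 bp and both lie at or beside clusters of peaks described above. Values per gene are bp under peaks within 500 bp of its ends, summed over both ends, and are not widths of single sites. Of the genes that kept a site, 4931408C20Rik had the most at ES in cKO, with 305 bp at ES and 111 bp at RS, and 117 and 461 bp in WT. LOC100504180 in the Duxf3 cluster followed with 269 and 108 bp in cKO, against 291 and 277 bp in WT. Gm32584, Gm9758, Gm20594, Gm21814 and Lars2, a mitochondrial tRNA ligase, had between 10 and 159 bp under peaks at ES in cKO. Each of these 7 was also open at ES in WT or SV129.

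Of the 21 genes 9 shared a pattern: open at RS in both C57BL6 backgrounds, open at ES in cKO, and not listed at ES in WT or SV129. Cycs, the somatic cytochrome c gene, had 174 bp under an open site at ES and 213 bp at RS in cKO, and 0 and 479 bp in WT. Ankrd50, which acts in the recycling of membrane proteins from endosomes, had 171 bp at ES and 371 bp at RS in cKO, against 0 and 780 bp in WT. For Zbtb20, a zinc finger repressor, the values were 144 and 418 bp in cKO against 0 and 806 bp in WT. These 3 genes had the most bp under open sites at ES in cKO within the group. Tpt1, which encodes an abundant growth-associated protein, had 95 bp at ES and 216 bp at RS in cKO, and 0 and 411 bp in WT. The others were Rab30, a small GTPase of the Golgi, with 95 and 164 bp in cKO, and Ebag9, with 89 and 141 bp. Srgap2, a regulator of Rac in cell shape, had 87 and 144 bp, and Kif1b, a kinesin motor, 84 and 164 bp. Mtmr12, of the myotubularin phosphatase family, had 76 and 226 bp. In WT these last 5 genes had 0 at ES and between 341 bp at Rab30 and 881 bp at Srgap2 at RS. In cKO each of the 9 had fewer bp under open sites at its ends at ES than at RS. The 9 were singled out after their values were seen.

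The promoters of Cycs, Ankrd50 and Tpt1 are shown because their cKO ES open sites lie wholly or mostly within the 250 bases before the start, so the bases still open at ES can be read off. The sequences are from RefSeq (GRCm38.p6), read 5′ to 3′ on the strand of the gene, and capitals mark the bases under the cKO ES peak.
Cycs, minus strand, chr6:50566570-50566819: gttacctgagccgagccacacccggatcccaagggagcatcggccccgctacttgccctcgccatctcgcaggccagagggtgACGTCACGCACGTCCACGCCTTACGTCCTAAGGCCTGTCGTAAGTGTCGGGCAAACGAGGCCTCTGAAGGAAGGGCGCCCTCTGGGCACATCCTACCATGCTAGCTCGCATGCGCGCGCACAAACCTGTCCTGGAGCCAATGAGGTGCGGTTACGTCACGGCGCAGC
Ankrd50, minus strand, chr3:38484851-38485100: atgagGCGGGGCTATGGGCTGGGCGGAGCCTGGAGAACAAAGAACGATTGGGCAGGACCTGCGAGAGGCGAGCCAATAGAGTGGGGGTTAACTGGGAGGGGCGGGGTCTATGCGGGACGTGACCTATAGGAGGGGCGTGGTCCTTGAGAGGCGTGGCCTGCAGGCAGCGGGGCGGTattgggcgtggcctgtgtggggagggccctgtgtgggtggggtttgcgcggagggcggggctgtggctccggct
Tpt1, plus strand, chr14:75845006-75845255: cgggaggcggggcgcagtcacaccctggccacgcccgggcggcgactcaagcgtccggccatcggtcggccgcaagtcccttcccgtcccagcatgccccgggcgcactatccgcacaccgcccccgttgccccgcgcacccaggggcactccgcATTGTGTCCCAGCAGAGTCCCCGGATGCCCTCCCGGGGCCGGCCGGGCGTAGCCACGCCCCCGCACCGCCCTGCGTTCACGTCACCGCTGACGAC
The Cycs peak covered 167 of these bases, including those next to the start, and the 250 bases held 23 CpG. The Ankrd50 peak covered 171 of 250 bases with 17 CpG in the window, and the Tpt1 peak the 95 bases before the start, with 33 CpG in the window. All 3 exceed the median of all promoters, 13 CpG per 300 bases. The median of promoters open in cKO at RS was 24, so this was not particular to sites still open at ES.

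Nucleosome calls at gene ends turned over between genes. In cKO 8205 genes had a call at an end at ES and 6629 at RS, and in WT 7798 and 9956. Between the stages cKO lost the call at 3195 genes, 48.2% of those with one at RS, kept it at 3434 and gained one at 4771, 31.3% of those without one. WT lost 5460 (54.8%), kept 4496 and gained 3302 (27.7%). The excess of gains in cKO did not hold in the shared score range, where cKO had 5147 genes at ES and 6629 at RS, with 4351 lost and 2869 gained, and WT had 3973 and 6983. Of the 4771 genes gained in cKO 45% had a call in WT at RS, against 32.4% of the 15258 genes without a call in cKO at RS, from which the gained genes come. Of genes gained in cKO 20.4% were also gained in WT, and of genes gained in WT 29.5% were also gained in cKO.

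Promoters rich in CpG had calls less often at ES than at RS, and promoters poor in CpG more often. Of the 2974 promoters with 31 or more CpG per 300 bases 47.4% had a nucleosome call within 500 bp of the start in cKO at ES and 52% at RS, against 41.9% and 80.4% in WT. Of the 3841 promoters with at most 2 CpG the shares were 13.4% at ES and 5.88% at RS in cKO, and 12.4% and 8.28% in WT. The direction therefore turned with CpG content in both backgrounds, and the difference at CpG-rich promoters was smaller in cKO. The shared score range gave a larger difference at CpG-rich promoters in cKO, with 31.4% at ES and 52% at RS, and 24.3% and 61.1% in WT. The CpG-poor class there stood at 6.66% and 5.88% in cKO and 5.44% and 3.72% in WT. Among promoters, those that gained a call in cKO had a median of 16 CpG, those that lost one 21 and those that kept one 25. In WT the medians were 8, 21 and 24.

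**Figure D4:**
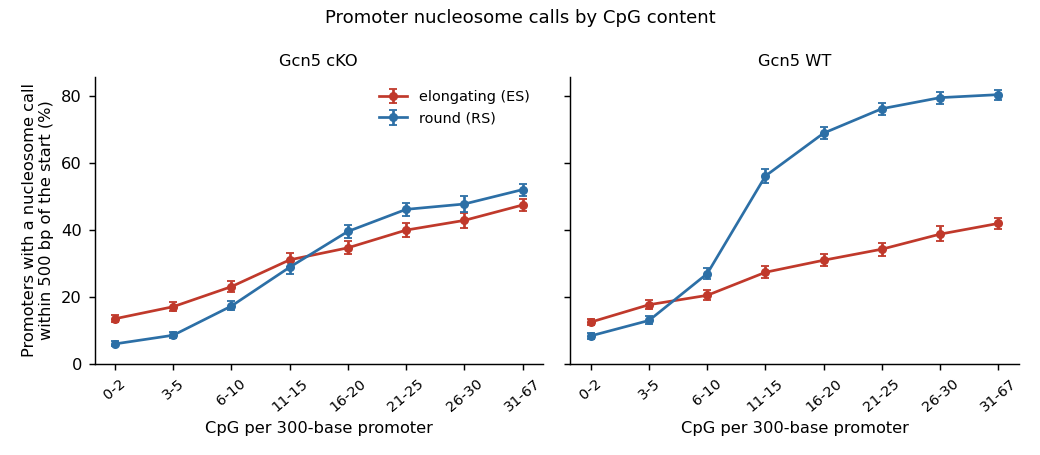
Share of promoters (%) with a nucleosome call within 500 bp of the start (vertical axis) by number of CpG in the 300-base promoter (horizontal axis), for elongating and round spermatids of cKO on the left and WT on the right; points are single lists with Wilson 95% intervals. In the class with 31 to 67 CpG the ES and RS points are 47.4% and 52% in cKO and 41.9% and 80.4% in WT.

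Motifs were counted on both strands in the 300 bases around each start, 250 before and 50 after, over 21263 promoters. The 2469 promoters open in cKO at RS, 2456 of which were not open at ES, held CCAAT in 54.8%, against 38.2% of all promoters, 40.9% of the 10195 open in WT at RS and 36.4% of the 7726 open in WT and not in cKO. CCAAT is the letter core bound by the factor NF-Y. GGGCGG, the GC box, was present in 72.9% of promoters open in cKO at RS, in 65.6% of those open in WT and in 46.2% of all. TGACGTCA, the full cAMP response element bound by CREM-family factors, was present in 4.78%, 3.9% and 2.23%, and its shorter core TGACGT, which it contains, in 18.9%, 13.2% and 8.49%. TATAAA was present in 4.37%, 5.91% and 12.6%. These are letter matches and say nothing of binding. The cKO RS list of open sites is much shorter than the WT one, with 4075 peaks against 56480. Motifs were not counted in a WT set of the same length. Whether the motif shares follow the length of the list or the genotype was therefore not tested.

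The protamine and transition protein genes, whose products replace histones in the stages that follow, had calls at more genes at ES than at RS in cKO and SV129 and at fewer in WT. Of the 5 genes 4 had a nucleosome call at an end in cKO at ES and 2 at RS, against 1 and 4 in WT, and 4 and 2 in SV129, which carries intact Gcn5. All genes stood at 37.5% and 30.3% in cKO, 35.6% and 45.5% in WT, and 39.2% and 48.4% in SV129. Tnp1, which encodes transition protein 1 (chromosome 1, 73015074 to 73015899), had 197 bp under calls at ES and 0 at RS in cKO, and 0 and 485 bp in WT. Prm1, which encodes protamine 1, had 150 bp at ES and 0 at RS in cKO and 0 at both stages in WT. In SV129 Prm1 had 150 bp at ES and 0 at RS, and Tnp1 0 and 170 bp, so a call at Prm1 at ES was not limited to cKO. Prm2, the gene of the second protamine, had 177 bp at ES and 340 bp at RS in cKO, and 170 and 250 bp in WT. Tnp2, of transition protein 2, had 150 and 177 bp in cKO, against 0 and 102 bp in WT. Prm3, a neighbour within the same cluster on chromosome 16, had none in cKO and 0 and 300 bp in WT. Prm2 and Prm3 lie so close that the same WT RS calls and open site count for both. With scores limited to the shared range, 3 of the 5 genes had a call in cKO at ES and 2 at RS, 0 and 3 did in WT and 1 at each stage in SV129, and Prm1 had none in cKO at ES.

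Open sites at these genes were not listed in cKO at either stage. In WT at RS they covered 438 bp at Tnp1 and 187 bp at Prm1, and none was listed at ES. The promoters of both genes are shown with the bases under the WT RS open site in capitals, since these are the bases that were open in intact round spermatids and not listed in cKO.
Tnp1, minus strand, chr1:73015900-73016149: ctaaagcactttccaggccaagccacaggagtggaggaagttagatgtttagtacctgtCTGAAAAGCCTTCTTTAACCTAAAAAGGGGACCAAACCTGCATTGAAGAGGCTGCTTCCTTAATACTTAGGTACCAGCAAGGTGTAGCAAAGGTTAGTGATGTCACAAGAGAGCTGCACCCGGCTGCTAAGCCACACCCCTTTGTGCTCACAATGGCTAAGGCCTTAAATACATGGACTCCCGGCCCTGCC
Prm1, minus strand, chr16:10796824-10797073: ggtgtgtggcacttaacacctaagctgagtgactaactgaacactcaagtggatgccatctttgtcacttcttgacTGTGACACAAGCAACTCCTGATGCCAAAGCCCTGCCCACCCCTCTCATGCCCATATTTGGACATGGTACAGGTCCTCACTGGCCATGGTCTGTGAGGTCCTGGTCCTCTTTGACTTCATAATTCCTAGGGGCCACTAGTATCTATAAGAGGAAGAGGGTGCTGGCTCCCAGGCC
The WT open site covered 191 of the 250 bases at Tnp1 and 174 at Prm1. The cKO ES nucleosome calls lay across the start of both genes, over 19 of these bases at Tnp1 and 58 at Prm1, where the call spanned chr16:10796732-10796881. Both windows are poor in CpG, with 2 at Tnp1 and 0 at Prm1.

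Histone genes expressed in testis kept their count in cKO. Of 18 genes found of 20 looked for, 7 had a call at ES and 7 at RS, against 6 and 11 in WT, and in the shared score range 6 and 7 against 2 and 9. With all calls, the shares over all genes were 37.5% and 30.3% in cKO, and 35.6% and 45.5% in WT. H2bc1, a histone H2B gene of testis, had 0 bp at ES and 495 bp at RS in cKO, and 0 and 662 bp in WT. H1f7, the linker histone of spermatids, had 234 bp at ES and 0 at RS in cKO, 0 and 215 bp in WT, and 335 and 0 bp in SV129. H2al2a, a small H2A variant that loads with transition proteins, had 178 bp at ES and 0 at RS in cKO, none in WT, and 407 bp at ES and 0 at RS in SV129. Within shared scores H1f7 had 150 bp at ES in cKO. Open sites were listed at 7 of these genes in cKO at RS and at 0 at ES, among them H2az1 with 175 bp and H2az2 with 188 bp at RS, and at 12 and 0 in WT. Over all genes, 11.2% were open at RS in cKO and 46.5% in WT. Of these, 99.3% in cKO and 99.9% in WT likewise had no open site at ES.

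Genes of sperm structure had calls at fewer members at ES than at RS in both backgrounds, by a smaller margin in cKO. Over all genes the shares were 37.5% at ES and 30.3% at RS in cKO, and 35.6% and 45.5% in WT. Fewer calls at ES in WT were thus not particular to these genes. Of 22 acrosome genes 4 had a call at ES and 7 at RS in cKO, against 9 and 17 in WT. Zp3r, a protein of the acrosomal matrix, had 229 bp at ES and 0 at RS in cKO, 0 and 275 bp in WT, and 150 and 0 bp in SV129. Pick1, which acts in acrosome formation, had 0 at ES and 347 bp at RS in cKO and 390 and 703 bp in WT. Of 33 flagellum genes 13 had a call at ES and 14 at RS in cKO, and 12 and 19 in WT. Ropn1, of the fibrous sheath, had 190 bp at ES and 0 at RS in cKO, and 0 and 535 bp in WT, whereas Spag16, of the central pair of the axoneme, had 0 and 210 bp in cKO, against 0 and 370 bp in WT. Within shared scores neither Zp3r nor Ropn1 had a call in cKO at ES. Acrosome genes with a call in that range numbered 2 at ES and 7 at RS in cKO, against 4 and 14 in WT, and flagellum genes 7 and 14 in cKO, against 4 and 15 in WT. All 21887 genes gave 5147 and 6629 in cKO there, and 3973 and 6983 in WT.

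Genes of sperm metabolism and sperm kinases had calls at more members at ES than at RS in cKO and at fewer in WT, as all genes did. Of 20 genes 9 had a call at ES and 5 at RS in cKO, against 8 and 15 in WT, beside 37.5% and 30.3% of all genes in cKO and 35.6% and 45.5% in WT. In the shared score range the counts were 6 and 5 in cKO, a difference of 1 gene, and 4 and 11 in WT. Pgk2, the glycolytic kinase of late germ cells, had 150 bp at ES and 0 at RS in cKO, and 177 and 580 bp in WT. Its open site was not listed at ES and covered 117 bp at RS in cKO and 274 bp in WT. Ldhc, the lactate dehydrogenase of germ cells, had 103 bp under an open site at RS in cKO and 227 bp in WT, and none at ES. Tssk6, a kinase of spermatids, had 360 bp of calls at ES and 0 at RS in cKO, against 0 and 273 bp in WT, and 651 and 353 bp in SV129. Within shared scores Tssk6 had 190 bp and Pgk2 none in cKO at ES. Calr3, a chaperone for sperm proteins, had 205 bp at ES and 0 at RS in cKO and 0 and 540 bp in WT.

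Of 20 regulators of transcription and translation in spermatids 6 had a call at ES and 4 at RS in cKO, against 7 and 14 in WT. All genes went the same ways, with 37.5% and 30.3% in cKO, and 35.6% and 45.5% in WT. With shared scores alone cKO had 3 at ES and 4 at RS, and WT 3 and 10. Open sites were listed at 3 of them in cKO at RS, Rfx2 with 117 bp, Elavl1 with 104 bp and Crem with 96 bp, and at none at ES. Crem, a master activator of haploid genes, had 554 bp in WT at RS, and Rfx2, a factor for cilium genes, 538 bp. Elavl1, an RNA-binding protein that stabilizes messages, had 0 bp of nucleosome calls at ES and 503 bp at RS in cKO, and 355 and 736 bp in WT. Rfx2 differed, with 305 bp at ES and 175 bp at RS in cKO, and 0 and 747 bp in WT.

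The SAGA and ATAC subunits, the partners of Gcn5, had a nucleosome call at 15 of 29 genes at ES and at 15 at RS in cKO, and at 15 and 23 in WT. These were not the same genes in cKO, where 7 kept the call, 8 lost it and 8 gained one. Over all genes in cKO, 48.2% of those with a call at RS lost it and 31.3% of those without one gained it. Calls stood at 37.5% of all genes at ES and 30.3% at RS in cKO, and at 35.6% and 45.5% in WT. Fewer calls at ES in WT were thus not particular to these subunits or to the chromatin regulators below. Limited to shared scores, the counts were 10 at ES and 15 at RS in cKO and 7 and 18 in WT. Tada2b, an adaptor subunit that binds Gcn5, had 313 bp at ES and 0 at RS in cKO and 150 and 459 bp in WT. Tada3, another adaptor, had 0 at ES and 300 bp at RS in cKO and 0 and 592 bp in WT. Tada2b had none in the shared score range in cKO at ES. Open sites were listed at 8 of these genes in cKO at RS, beside 11.2% of all genes. Supt20, Tada2b and Usp22 had the most bp under them, with 146, 140 and 130 bp. None of the 8 was open at ES, like 99.3% of all genes open in cKO at RS, and Mbip was new there. Of 33 chromatin regulators of spermiogenesis 18 had a call at ES and 17 at RS in cKO, against 11 and 24 in WT, and in the shared score range 12 and 17 against 6 and 19. Top2b, the topoisomerase that relieves strain as histones leave, had 0 at ES and 497 bp at RS in cKO, and 0 and 490 bp in WT. Dot1l, which methylates histone H3 within the nucleosome core, had 345 bp at ES, of which 177 bp were in the shared score range, and 0 at RS in cKO, against 239 and 449 bp in WT.

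Housekeeping genes, whose promoters are typically CpG-rich, had calls at fewer members at ES in both backgrounds. With all calls, all genes stood at 37.5% at ES and 30.3% at RS in cKO, and at 35.6% and 45.5% in WT. With all calls the housekeeping genes thus went against all genes in cKO and with them in WT. In the shared score range all genes gave 5147 at ES and 6629 at RS in cKO, and 3973 and 6983 in WT. There the housekeeping genes went with all genes in both backgrounds. Of 49 genes 13 had a call at ES and 25 at RS in cKO, and 20 and 38 in WT, and in the shared score range 10 and 25 against 11 and 32. An open site was listed at 0 of them at ES and 18 at RS in cKO, and at 0 and 41 in WT. At RS 11.2% of all genes had one in cKO and 46.5% in WT. Cytosolic ribosomal protein genes had a call at 37 of 81 genes at ES and 44 at RS in cKO, and 43 and 64 in WT. In the shared score range these were 22 and 44 in cKO, and 20 and 57 in WT. The ribosomal protein list had an open site at 23 genes in cKO and 72 in WT at RS. Rps29 had the most bp under one in cKO, with 0 at ES and 294 bp at RS. Meiotic genes had a call at 16 of 38 at ES and 17 at RS in cKO, and 17 and 31 in WT, with 11 and 17 against 7 and 24 in the shared score range. Hspa2, a chaperone of spermatocytes, had 0 at ES and 150 bp at RS in cKO and 0 and 455 bp in WT.

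Lists of genes best known from other cells and stages had calls at more genes at ES than at RS in cKO, as all genes did with 37.5% and 30.3%, and, imprinted genes apart, also in WT, where all genes had 35.6% and 45.5%. In SV129 these lists were split. Developmental transcription factors had 30 genes at ES and 34 at RS there, pluripotency genes 6 and 7, and imprinted genes 13 and 15. The receptors had 217 and 118 in SV129, spermatogonial genes 10 and 9, and Hox cluster genes 14 and 9. Of 81 developmental transcription factors 34 had a call at ES and 23 at RS in cKO, and 26 and 24 in WT, with 29 and 23 against 13 and 4 in the shared score range. Of 1459 olfactory and vomeronasal receptors 201 did at ES and 104 at RS in cKO, and 241 and 119 in WT. The receptors turned in the shared score range in cKO, with 86 at ES and 104 at RS, while WT had 114 and 20. Spermatogonial genes had a call at 10 of 19 at ES and 4 at RS in cKO, and at 8 and 5 in WT, with 6 and 4 against 4 and 3 in the shared score range. Gfra1, the receptor of spermatogonial stem cells, had 308 bp at ES, with 98 bp in the shared score range, and 0 at RS in cKO, and none in WT. Hox cluster genes had 12 of 39 at ES and 7 at RS in cKO, and 13 and 7 in WT, while in the shared score range cKO had 6 and 7 and WT 4 and 1. Pluripotency genes had 6 of 18 at ES and 5 at RS in cKO, and 12 and 6 in WT, but 2 and 5 in cKO and 6 and 4 in WT in the shared score range. Imprinted genes had 11 of 28 at ES and 7 at RS in cKO, and 9 and 15 in WT. In the shared score range they had 7 at ES and 7 at RS in cKO, and 2 and 5 in WT.

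Markers of other cells of the testis and epididymis also had calls at more genes at ES than at RS, as did all genes in cKO, with 37.5% and 30.3%. Sertoli and Leydig cell markers had a call at 10 of 22 genes at ES and 7 at RS in cKO, with 1662 and 1167 bp in all, and at 10 and 3 in WT. Peritubular, endothelial and blood cell markers had 7 of 20 at ES and 1 at RS in cKO, with 1195 and 24 bp, and 8 and 1 in WT. Epididymal and epithelial markers had 5 of 13 at ES and 3 at RS in cKO, with 615 and 477 bp, and 5 and 2 in WT. In the shared score range the 3 lists had 8, 3 and 5 genes at ES and 7, 1 and 3 at RS in cKO, and 6, 1 and 4 at ES and none at RS in WT. None of these genes had an open site at either stage in cKO, where 11.2% of all genes had one at RS and 0.0959% at ES. The part of such cells in the nucleosome lists was not tested.

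**Figure D5:**
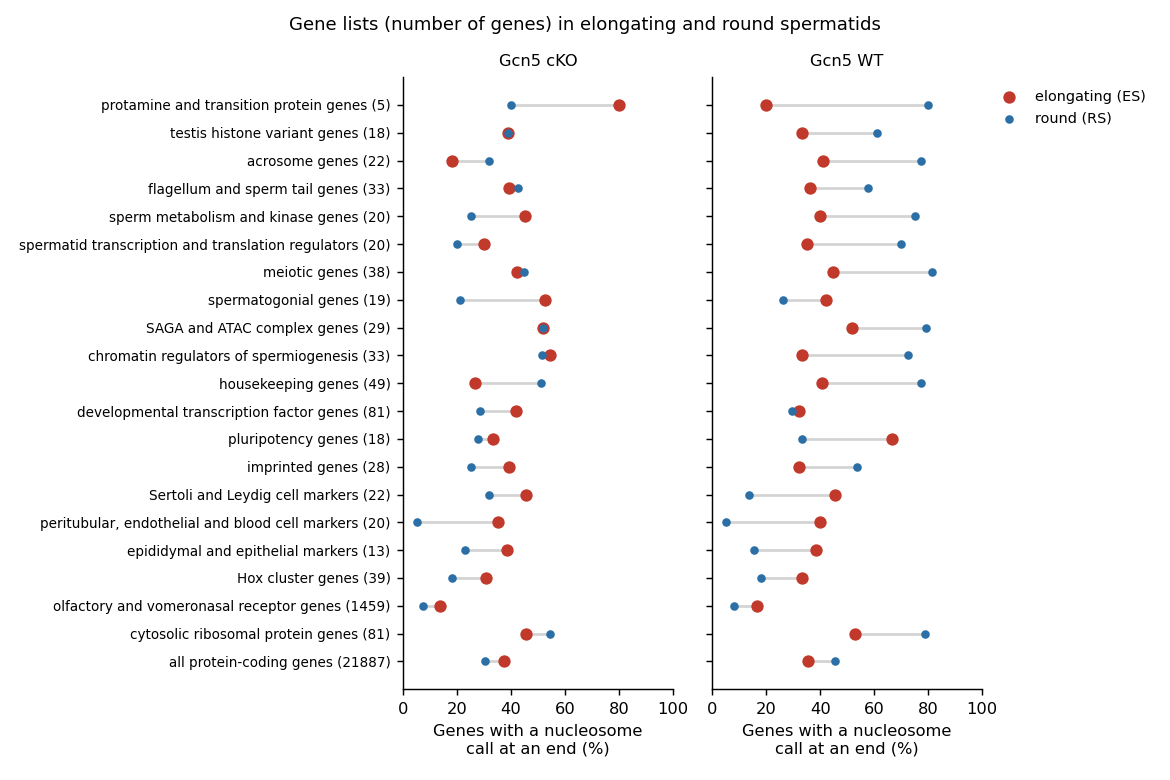
Share of genes (%) in each list with a nucleosome call within 500 bp of an end in elongating (large points) and round spermatids (small points), for cKO on the left and WT on the right, with the number of genes found in brackets; points are single lists of calls. The protamine and transition protein genes stand at 4 of 5 at ES and 2 of 5 at RS in cKO and at 1 and 4 of 5 in WT, and all genes at 37.5% and 30.3% in cKO and 35.6% and 45.5% in WT.

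Over all genes, the largest single gains of called sequence in cKO were at D430042O09Rik with 823 bp at ES and 0 at RS, Actl10 with 746 bp, Hs3st3a1, which modifies heparan sulfate, with 745 bp, Scly, a selenocysteine lyase, with 732 bp, and Ascc1 with 717 bp. In WT these genes had 39, 300, 177, 0 and 0 bp at ES and 699, 719, 150, 0 and 345 bp at RS. Limited to shared scores, D430042O09Rik had 479 bp at ES in cKO, Actl10 726 bp, Hs3st3a1 150 bp, Scly 535 bp and Ascc1 687 bp. The largest losses were at Gm9758, of a family with many copies, with 0 at ES and 800 bp at RS, Erg28, of sterol synthesis, with 723 bp at RS, Tmem18 with 722 bp, Mgat2, a glycosyltransferase, with 715 bp, and Gm46382 with 710 bp. WT also held fewer bp at ES than at RS at each of these 5, for example 0 at ES and 453 bp at RS at Erg28.

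The largest losses of open sequence in cKO were at Hdgfl2 and Ubxn6, with 0 at ES and 474 bp each at RS, at Camta1, a transcription activator, with 450 bp at RS, and at Cdca2 and Kctd9 with 449 bp each at RS. Hdgfl2 and Ubxn6 are neighbours, as are Cdca2 and Kctd9, and each pair shares its site. In WT no open site was listed at these genes at ES, and at RS between 560 bp at Camta1 and 915 bp at Cdca2 were covered.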

How the data were processed

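ATAC-seq was done on 34 libraries in 12 groups, with 1 list each of nucleosome calls and subnucleosome peaks deposited per group. Each interval carries a score deposited by the authors, whose meaning is not stated. STAR 2.5.2a, MACS2 2.1.0.20140616 and the builds GRCm38 and mm10 are named in the submitters' processing notes, without their roles. The sources used here do not state how nucleosomes were called or how libraries were combined. The depth behind the lists is unknown.

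Call centres and peak centres were assigned to gene ends (500 bp to either side), gene bodies or sequence outside genes of the RefSeq annotation of GRCm38. An overlap of at least 1 bp counted as shared. Intervals on unplaced scaffolds were left out of positions, overlaps and gene counts. They were kept in the lengths of the deposited lists, the ratios of those lengths and the counts of peaks in clusters. Strand was known for 17492 of 21887 genes (79.9%), from the promoter table. Shares have Wilson 95% intervals, which cover counting error only, and no test was run since each group has 1 list. The steps were tested on simulated data, where 100% of 10000 intervals were recovered. Python 3.11.15, numpy 2.4.6, pandas 2.3.3, scipy 1.17.1 and matplotlib 3.10.9 were used.

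Genes named were Kat2a and the protamine and transition protein genes, those with a cKO ES open site, and the genes with most called sequence gained or lost, per list and over all genes. The members, gene lists and this rule were chosen with earlier results of these data known. The limit on scores and the version without clusters of ES peaks were added after seeing the data.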

Additional observations from a re-analysis of the deposited data

Results flagged for a closer look

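In 7 results cKO and WT went opposite ways between the stages, and the difference was not tested, since each group has 1 list. Nucleosome calls at gene ends differed, ES minus RS, by 2682 in cKO and by -29334 in WT. Genes with a call at an end were 1576 more at ES in cKO, with an ES minus RS difference of -2158 in WT. In the shared score range, up to 0.00199 in all lists, cKO had 8728 calls at gene ends at ES and 15440 at RS, and the gene difference was -1482 in cKO and -3010 in WT, so both backgrounds then went the same way.

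Among gene lists, the difference in genes with a call, ES minus RS, was 2 in cKO and -3 in WT for protamine and transition protein genes, but also 2 in SV129, whose Gcn5 is intact. It was 4 in cKO and -7 in WT for sperm metabolism and kinase genes. The values were 2 and -7 for spermatid transcription and translation regulators, 1 and -13 for chromatin regulators of spermiogenesis, and 4 and -6 for imprinted genes. In SV129 these 4 lists had -5, -5, -4 and -2. Limited to shared scores, these differences were 1 in cKO, -3 in WT and 0 in SV129 for protamine genes, 1 in cKO and -7 in WT for metabolism and kinase genes, -1 and -7 for regulators, -5 and -13 for chromatin regulators, and 0 and -3 for imprinted genes. Opposite directions thus held in that range between cKO and WT for the first 2 of these lists, by 1 gene in cKO in each.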

How the results depend on the processing

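No paired analysis was possible because each group has 1 list, and for the same reason no library could be left out. Of the alternatives, 47 values stayed within their counting interval or within 1.5 times the count, 67 moved further and 4 changed direction; the cause was not tested. The lower share of calls at gene ends at ES held in cKO and WT under all 6 alternatives run on it. Its ES to RS ratio in cKO (0.451) was 0.385 with 250 bp windows, 0.545 with 1000 bp, 0.301 without calls at the most common score and 0.577 in the shared score range. In WT (0.152) it was 0.111, 0.219, 0.145 and 0.0848, and 0.197 by covered bp. The number of calls at gene ends in cKO (1.17) was 1.0 and 1.42 with the 250 and 1000 bp windows, 1.21 by covered bp, 1.24 without the most common score and 0.565 in the shared score range, a change of direction. In WT (0.353) it was 0.258, 0.509, 0.433, 0.261 and 0.265. The share outside genes in cKO (1.03) turned to 0.972 in the shared score range.

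With 75 bp of overlap, 2.68% of ES calls and 7.2% of RS calls were shared in cKO, and 3.22% and 7.39% in WT. RS sites with an ES nucleosome call were 12.2% in cKO and 4.16% in WT at 50% overlap. RS sites kept open were 6.94% in cKO in the upper 50% of scores and 4.61% without clusters of ES peaks; in WT they were 0.475% at 50% overlap, 0.43% without clusters and 1.75% with as many RS peaks as cKO. Those WT peaks lay at gene ends in 41.9%, against 18.2% of all.

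For genes with a nucleosome call, kept genes in cKO numbered 2060 and 5330 with 250 and 1000 bp windows, 2035 at the promoter end and 2278 in the shared score range, and gained genes 2826 at the promoter end and 2869 in that range. The ES to RS ratio of genes was 0.776 in cKO in that range, against 1.24, and 1.01 in WT with 1000 bp, against 0.783, both changes of direction. In WT kept genes numbered 2955 with 250 bp, 2789 at the promoter end and 1811 in the shared score range, and gained genes 1632 and 2162 in the last 2 of these. For open sites in the upper 50% of scores, cKO lost 1181 genes, kept 3 and gained 1, a ratio of 0.00338, and WT kept 5 and gained 0, a ratio of 0.000597. With 1000 bp windows cKO gained 9, and WT kept 14 and gained 2.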
